A study of Mus musculus with 30 samples.

Results

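Interferon regulatory factors (IRFs) are transcription factors with a shared DNA-binding domain that recognises GAAA repeats, the core of the interferon-stimulated response element (ISRE). The 8 genes described here are *Irf1*, *Irf2*, *Irf3*, *Irf4*, *Irf5*, *Irf7*, *Irf8* and *Irf9*, found by gene symbol among 25400 genes of a count table, and all 8 passed the filter on low counts. A further member of the family was not among the genes chosen. The counts come from poly(A) RNA of mouse cells at the neuronal progenitor cell (NPC) stage, day 8 of differentiation, in 24 libraries of 8 lines with 3 libraries each.

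All lines stem from HA36CB1 embryonic stem cells (ESCs; 129 × C57BL/6). WT cells carried both *Mbd3* and *Mbd2*, and *Mbd3* KO cells were made by CRISPR-Cas9 with guides to exons 2 and 3 of *Mbd3*. The other 6 lines were *Mbd3* KO cells with one biotin-tagged construct, driven by the CAG promoter from one genomic site. The constructs were MBD3a (the long MBD3 isoform), MBD3ΔMBD (MBD3 without its methyl-CpG-binding domain), MBD2a (the long MBD2 isoform), MBD2aΔGR (MBD2a without its glycine-arginine-rich region), MBD2a R181C (MBD2a with a substitution in the MBD domain, numbered as in the sample labels) and MBD2t (an MBD2 isoform without the C-terminal coiled coil). Endogenous *Mbd2* was intact in all 8 lines. MBD2 and MBD3 are alternative subunits of the NuRD chromatin-remodelling and deacetylase complex. The comparisons address which of these proteins can stand in for MBD3 in *Mbd3* KO cells, read here through the IRF genes. The MBD2t libraries are repeats of 1 clone, so their spread, and p-values resting on it, cover repeats of that clone. All 24 libraries entered one fit, so these repeats also enter the spread behind the p-values of the comparisons without MBD2t. The other libraries come from individually derived clones.

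The members hold different places in the interferon pathway. IRF3 and IRF7 are phosphorylated by the kinases TBK1 and IKKε below sensors of foreign nucleic acid and induce the type I interferon genes, and IRF5 acts below Toll-like receptors. IRF9 is the DNA-binding subunit of the ISGF3 complex, which carries the signal from the interferon receptor to ISREs. IRF1 is an activator induced by interferon through gamma-activated sites (GAS), and IRF2 binds the same elements and is known mainly as a repressor that opposes IRF1. IRF4 and IRF8 are best known from blood cells, where they bind with the ETS factors PU.1 (*Spi1*) and SPI-B. Embryonic stem cells are known for a weak interferon response.

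Each library held 27993858 to 49392806 counted reads. Levels are given as CPM, counts scaled to a common library total with TMM factors, and levels of different genes are compared only as CPM per kb of exon. A gene was called where the adjusted p was under 0.05 and the absolute log2 fold change above 1 (edgeR's quasi-likelihood test, Benjamini-Hochberg adjustment over 16582 genes). *Mbd3* itself measured 149 to 157 CPM in WT and 34.2 to 73.8 CPM in *Mbd3* KO libraries, and its reads were called lower in the KO (log2 fold change -1.378, standard error 0.27, adjusted p = 0.000283, edgeR). Reads on *Mbd2* were at 67.0 to 87.2 CPM in the libraries labelled MBD2a, against 64.2 to 70.9 CPM in *Mbd3* KO and 253 to 700.2 CPM in the other 3 lines with MBD2 constructs, so these counts show no clear excess of construct RNA in MBD2a. The paper, however, reports similar protein levels of MBD2a and MBD2aΔGR by Western blot in ESCs. It states that lower expression of MBD2a does not explain its weaker rescue. Protein in ESCs and RNA at the NPC stage are different measures. The summed level of 8 NPC markers (*Pax6*, *Nes*, *Hes5* and others) was 1014 to 1177 CPM in WT but 160 to 283 CPM in *Mbd3* KO, 194 to 352 CPM in MBD2a and 240 to 252 CPM in MBD2t. In these bulk libraries fewer cells of a type and less RNA per cell cannot be told apart. MBD2aΔGR library 3 stood apart with 13591 CPM summed over 9 primitive endoderm markers, where WT libraries had 468 to 616 CPM.

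The promoters of 3 members hold letters that match elements of interferon or NF-kB signalling, so they are shown before the values. The 250 bases before each RefSeq start (GRCm38.p6; 8 of 8 genes matched, with 11 starts) were searched on both strands for the GAS element TTCNNNGAA, the ISRE core GAAANNGAAA and the NF-kB consensus. Over 32851 mouse promoters of this length, 7.02% held a GAS, 2.98% an ISRE core and 7.25% an NF-kB consensus. Matches are in capitals, 5′ to 3′ on the plus strand.
*Irf1*, chr11:53769904-53770013: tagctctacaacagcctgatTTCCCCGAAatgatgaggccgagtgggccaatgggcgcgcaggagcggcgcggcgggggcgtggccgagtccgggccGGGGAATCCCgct
*Irf2*, chr8:46739495-46739744: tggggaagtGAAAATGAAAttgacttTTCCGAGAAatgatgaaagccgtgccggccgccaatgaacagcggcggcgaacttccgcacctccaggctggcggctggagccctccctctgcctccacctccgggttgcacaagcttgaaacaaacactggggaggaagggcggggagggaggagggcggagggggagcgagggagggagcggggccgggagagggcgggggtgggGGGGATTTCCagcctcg
*Irf8*, chr8:120736167-120736233: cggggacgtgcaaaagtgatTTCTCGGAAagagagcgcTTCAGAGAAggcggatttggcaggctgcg
The *Irf1* window holds a GAS at 90 to 82 bases and an NF-kB match at 13 to 4 bases before the start. The *Irf2* window holds an ISRE core at 241 to 232, a GAS at 224 to 216 and an NF-kB match at 17 to 8 bases before its start. The *Irf8* window holds 2 GAS elements, at 171 to 163 and 153 to 145 bases before the start. No match was found in the windows of *Irf3*, *Irf4*, *Irf5*, *Irf7* and *Irf9*, which says only that these letters are not within 250 bases. CpG dinucleotides, the sites that MBD2 binds when methylated, numbered 3 in the *Irf7* window and 7 and 1 in the pair of *Irf9* windows, against 25 and 35 in the windows of *Irf1*, 29 and 8 in those of *Irf8*, 25 in *Irf5*, 17 in *Irf2*, 16 in *Irf3* and 11 in *Irf4*. The median over all promoters was 6. These are descriptions of sequence, and no binding was measured at these windows here.

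In *Mbd3* KO NPCs the order of the family changed. *Irf7*, *Irf1*, *Irf5* and *Irf9* were higher than in WT, by 40.3, 5.43, 4.58 and 2.97 fold, and *Irf2* was lower, at 0.429 of the WT level. *Irf3* and *Irf8* were not called, and *Irf4* was at the edge of detection. Thus 5 of 8 members were called, against 33.8% of all genes tested in this comparison. Of the 8, 4 were higher against 19.6% of all genes, and 1 was lower against 14.2%. The libraries did not overlap for 5 members, against 62.2% of all genes, and the median log2 fold change of the 8 was 1.376 where that of all genes was -0.03.

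**Figure D1:**
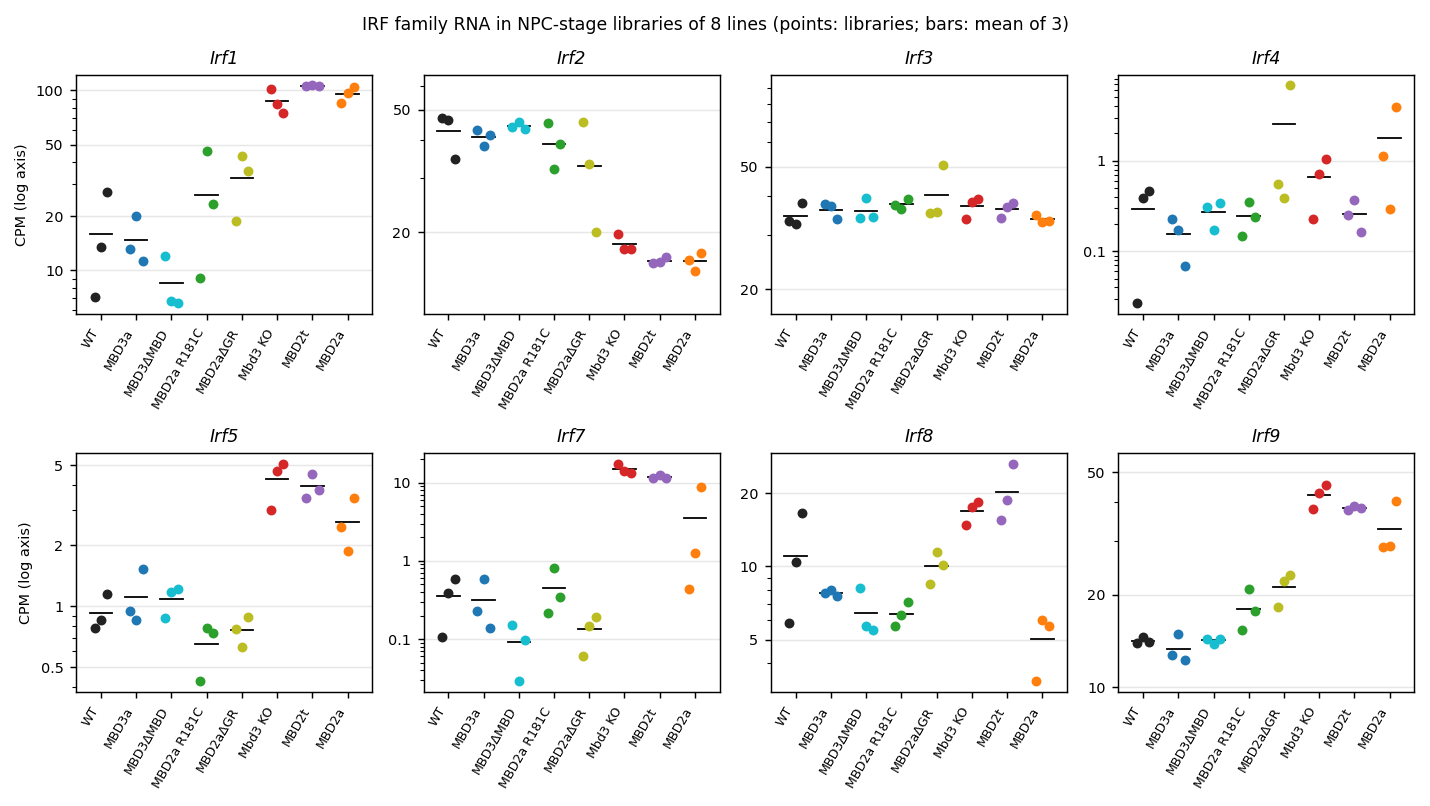
Level of each IRF gene in CPM (vertical log axis) in every library of the 8 lines (horizontal axis); points are libraries and black bars the mean of 3. *Irf1*, *Irf5*, *Irf7* and *Irf9* are high and *Irf2* low in *Mbd3* KO and MBD2t, *Irf3* lies between 32.5 and 50.8 CPM in all 24 libraries, and single libraries of MBD2aΔGR and MBD2a set the highest *Irf4* levels.

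In WT, *Irf1* (ENSMUSG00000018899.9, mm9 chr11:53583516-53591876, plus strand) measured 7.14, 13.4 and 27.3 CPM, and in *Mbd3* KO 102, 83.8 and 75.1 CPM. The groups did not overlap, although WT itself spanned a wide range with library 3 highest. The log2 fold change was 2.44 (standard error 0.48, 95% confidence interval 1.44 to 3.44, adjusted p = 0.000242, edgeR).

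*Irf2* (ENSMUSG00000031627.7, mm9 chr8:47825099-47932812, plus strand) moved the other way, with 47.2, 46.4 and 34.6 CPM in WT and 19.7, 17.6 and 17.6 CPM in *Mbd3* KO. The lowest WT library was again library 3, and it stayed above all KO libraries. Its log2 fold change of -1.22 had a standard error of 0.20 and an adjusted p of 3.88e-05 (edgeR). Per kb of exon, *Irf1* stood at 0.0946 to 0.493 times *Irf2* in WT and at 2.66 to 3.22 times in *Mbd3* KO, so that on this scale the gene for the activator exceeded the gene for the repressor in each KO library and in no WT library. The length used is that of all annotated exons merged, 3976 bases for *Irf1* and 2484 for *Irf2*. Where the ratio crosses 1 depends on this choice.

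**Figure D2:**
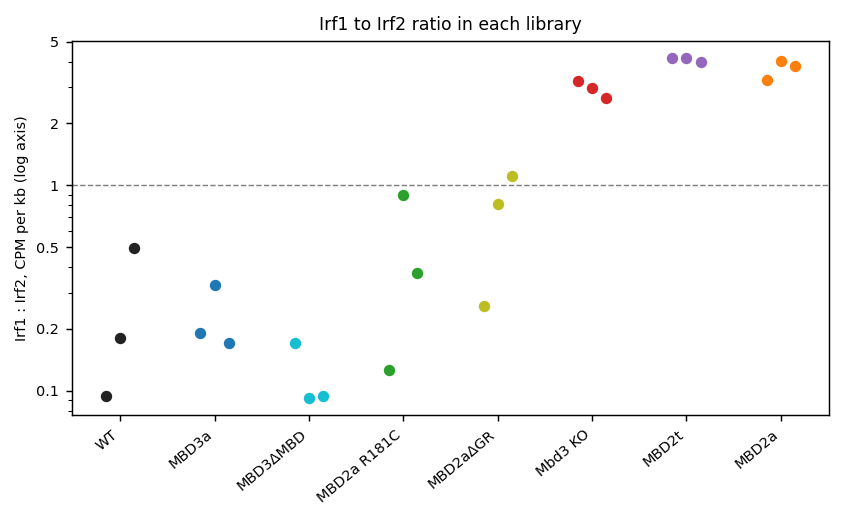
Ratio of *Irf1* to *Irf2*, both in CPM per kb of exon (vertical log axis), in each library (points) of the 8 lines. The ratio is 2.66 to 4.18 in the 9 libraries of *Mbd3* KO, MBD2t and MBD2a, and 0.0922 to 1.11 in the other 15 libraries.

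Among the factors that induce interferon genes, *Irf7* (ENSMUSG00000025498.7, mm9 chr7:148448605-148452380, minus strand) had 4, 14 and 24 reads in WT and 610, 630 and 499 reads in *Mbd3* KO, or 0.107 to 0.584 CPM against 13.2 to 17.4 CPM. This was the largest rise of the family, with a log2 fold change of 5.33 (standard error 0.71, 95% confidence interval 3.87 to 6.80, adjusted p = 3.36e-06, edgeR). *Irf3* (ENSMUSG00000003184.8, mm9 chr7:52253018-52258218, plus strand), its constitutive relative, gave 33.3, 32.5 and 38.2 CPM in WT and 33.9, 38.3 and 39.3 CPM in *Mbd3* KO. The groups overlapped, and the interval of the log2 difference was -0.15 to 0.35 (adjusted p = 0.489, edgeR). *Irf5* (ENSMUSG00000029771.5, mm9 chr6:29476625-29491869, plus strand) had 0.778, 0.853 and 1.14 CPM in WT and 3.00, 4.69 and 5.08 CPM in *Mbd3* KO (log2 fold change 2.20, standard error 0.28, adjusted p = 3.42e-06, edgeR). Of its exons, 411 bases (14.2%) overlap *Tnpo3* on the other strand, which lay at 148 to 166 CPM in WT and 153 to 164 CPM in *Mbd3* KO.

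*Irf9* (ENSMUSG00000002325.8, mm9 chr14:56222408-56228867, plus strand) varied little between WT libraries, at 13.9, 14.6 and 14.05 CPM, and reached 38.0, 42.8 and 45.4 CPM in *Mbd3* KO (log2 fold change 1.57, standard error 0.14, adjusted p = 9.38e-08, edgeR). Its exons share 123 bases (2.28%) with *Rnf31* on the same strand, which had 31.1 to 37.8 CPM in WT and 50.4 to 52.7 CPM in *Mbd3* KO. That difference was 0.58 on the log2 scale and was not called (adjusted p = 0.000167, edgeR). The part of *Rnf31* in the *Irf9* values was not tested. The gene *Stat2*, which encodes a partner of IRF9 in ISGF3, had a log2 fold change of 0.62 and was not called (adjusted p = 0.012, edgeR).

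*Irf8* (ENSMUSG00000041515.3, mm9 chr8:123260258-123280594, plus strand) had 5.88, 10.5 and 16.6 CPM in WT and 14.8, 17.6 and 18.3 CPM in *Mbd3* KO, so that WT library 3 lay among the KO libraries. The log2 fold change of 0.62 was not called (adjusted p = 0.0644, edgeR), and without WT library 3 it was 1.05 and was called (adjusted p = 0.00328). *Irf4* (ENSMUSG00000021356.3, mm9 chr13:30841095-30858796, plus strand) gave 1, 14 and 19 reads in WT and 8, 32 and 40 reads in *Mbd3* KO. The difference was not detectable at this depth (log2 fold change 1.18, 95% confidence interval -1.35 to 3.72).

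Per kb of exon, the WT order was *Irf2* (17.2 CPM per kb), *Irf3* (10.9), *Irf1* (4.01), *Irf9* (2.63), *Irf8* (1.56), *Irf5* (0.319), *Irf7* (0.119) and *Irf4* (0.0618), as means of 3. In WT the range of *Irf1* overlapped those of *Irf9* and *Irf8*, and the ranges of *Irf7* and *Irf4* overlapped. In *Mbd3* KO the order was *Irf1* (21.8), *Irf3* (11.7), *Irf9* (7.81), *Irf2* (7.37), *Irf7* (4.92), *Irf8* (2.39), *Irf5* (1.47) and *Irf4* (0.141), with *Irf9* and *Irf2* overlapping. Both orders depend on the merged exon lengths.

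With either MBD3 construct, no IRF gene passed the thresholds against WT, and the KO differences of *Irf1*, *Irf2*, *Irf5*, *Irf7* and *Irf9* were absent from the calls. Of the 8 members, 0 were called in MBD3a against WT, where 0% of all genes were called, 0 had an unadjusted p under 0.05, and 0 were free of overlap with WT, against 5.18% of all genes. In MBD3ΔMBD against WT, 0 were called, where 0.0181% of all genes were called, 1 (*Irf8*) had an unadjusted p under 0.05, and 0 were free of overlap, against 11.7%. DESeq2 called 0 members in both comparisons. *Irf1* was at 13.1, 19.96 and 11.2 CPM with MBD3a and at 12.04, 6.73 and 6.57 CPM with MBD3ΔMBD, and both ranges overlapped that of WT. The MBD3ΔMBD log2 fold change against WT was -0.94 for *Irf1* with an interval of -1.95 to 0.08, an interval that reaches well below WT. *Irf7* gave 7, 17 and 4 reads with MBD3a and 4, 1 and 4 reads with MBD3ΔMBD.

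Against *Mbd3* KO, MBD3a had 6 of 8 members called, 1 higher and 5 lower, where 32.4% of all genes were called, and MBD3ΔMBD also had 6, 1 higher and 5 lower, where 35.9% were. The member called higher was *Irf2* in each case, at 1.16 on the log2 scale in MBD3a (adjusted p = 7.87e-05, edgeR) and 1.28 in MBD3ΔMBD (adjusted p = 2.09e-05). *Irf7* had log2 fold changes of -5.54 and -7.34, *Irf1* of -2.56 and -3.38, *Irf5* of -1.95 and -1.94 and *Irf9* of -1.66 and -1.57. *Irf8*, which was not called between *Mbd3* KO and WT, was called lower in both rescued lines (log2 fold change -1.12 and -1.40, adjusted p = 0.00288 and 0.000399, edgeR), with 7.76, 7.998 and 7.53 CPM in MBD3a. Over all genes, 13.5% were called higher and 18.9% lower in MBD3a, and 15.0% higher and 20.9% lower in MBD3ΔMBD. The libraries did not overlap *Mbd3* KO for 7 members in MBD3a, against 67.4% of all genes, and for 6 in MBD3ΔMBD, against 69.0%. These comparisons share their *Mbd3* KO libraries.

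**Figure D3:**
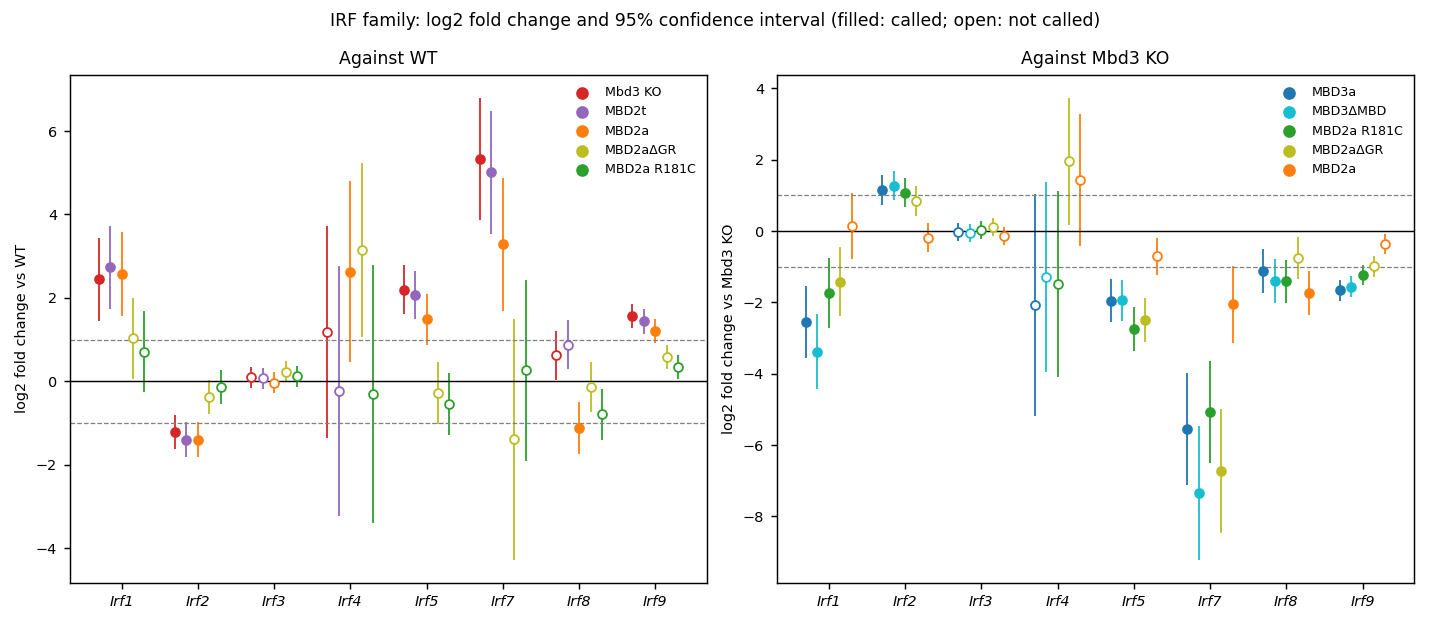
Log2 fold change of each IRF gene (vertical axis) against WT (left) and against *Mbd3* KO (right) for the lines named by colour; bars are 95% confidence intervals, filled points were called and open points were not, and dashed lines mark a log2 fold change of 1. Against WT, *Mbd3* KO, MBD2t and MBD2a lie together at *Irf1*, *Irf2* and *Irf9*, while *Irf8* is at 0.62 in *Mbd3* KO and at -1.13 in MBD2a.

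MBD2a without its GR region, or with the R181C substitution, gave no IRF gene past the thresholds against WT, but *Irf1* and *Irf9* varied between libraries. In MBD2a R181C against WT, 0 members were called, where 0.0181% of all genes were (0.00603% higher and 0.0121% lower), with 2 at an unadjusted p under 0.05 and 0 called by DESeq2. In MBD2aΔGR against WT, 0 members were called, where 5.16% of all genes were (2.69% higher and 2.47% lower), with 3 at an unadjusted p under 0.05, and DESeq2 called 1 (*Irf4*). *Irf1* was at 18.7, 43.4 and 35.5 CPM in MBD2aΔGR and at 9.07, 46.0 and 23.3 CPM in MBD2a R181C. The upper values lie above all WT libraries and below all *Mbd3* KO libraries. The log2 fold change of *Irf1* in MBD2aΔGR against WT was 1.03 (adjusted p = 0.164, edgeR), and 1.67 without WT library 3 (adjusted p = 0.042), where it was called.

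*Irf9* measured 18.2, 22.2 and 23.2 CPM in MBD2aΔGR, above all WT libraries. Its log2 fold change against WT of 0.58 passed the adjusted p (0.0202, edgeR) but not the fold threshold. Non-overlap with WT was found for 1 member in MBD2aΔGR, against 18.8% of all genes, and for 2 in MBD2a R181C (*Irf5* and *Irf9*), against 6.56%. *Irf7* stayed at 2, 5 and 7 reads in MBD2aΔGR and at 10, 30 and 13 reads in MBD2a R181C. *Irf4* gave 18 and 13 reads in the first pair of MBD2aΔGR libraries and 245 reads in library 3, the library with the high endoderm markers. Its log2 fold change against WT of 3.14 was not called (adjusted p = 0.0552, edgeR) but was without MBD2aΔGR library 1 (3.54) or 2 (3.58). That library also had the lowest *Irf2* of the line (20.1 CPM, where the other two had 45.6 and 33.3) and the highest *Irf3* of all 24 (50.8 CPM). Within the line it further had the lowest summed NPC markers (650 CPM) and the highest summed pluripotent cell markers (368 CPM) and trophoblast markers (764 CPM). The part of these markers and of the endoderm markers in the *Irf2*, *Irf3* and *Irf4* values was not tested.

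Against *Mbd3* KO, MBD2aΔGR had 3 members called, all lower (*Irf1*, *Irf5* and *Irf7*), where 25.2% of all genes were called (9.86% higher and 15.3% lower). MBD2a R181C had 6 called, 1 higher and 5 lower, where 31.1% were (13% higher and 18.1% lower). The libraries did not overlap *Mbd3* KO for 6 members in each line, against 50.2% of all genes in MBD2aΔGR and 63.3% in MBD2a R181C. *Irf9* in MBD2aΔGR missed the fold threshold with -0.99 (adjusted p = 1.51e-05, edgeR) and passed it without *Mbd3* KO library 1 (-1.05) or 2 (-1.01) or MBD2aΔGR library 2 (-1.06) or 3 (-1.05). It was also called with RLE scaling (-1.06), library size only (-1.12), no filter on low counts (-1.02) and DESeq2 (-1.06). The same held with MBD2t left out of the fit (-1.02) and with only these lines in it (-1.02). *Irf2* had 0.85 there and 1.11 without MBD2aΔGR library 3, where it was called. The *Irf1* fold of -1.41 (adjusted p = 0.0163, edgeR) was not called without *Mbd3* KO library 1 (-1.28) or MBD2aΔGR library 1 (-1.18). In MBD2a R181C, *Irf2* was called higher with 1.08, and had 0.92 without MBD2a R181C library 1, short of the threshold.

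The libraries labelled MBD2t and MBD2a differed from WT in the same direction as *Mbd3* KO at *Irf1*, *Irf2* and *Irf9*. MBD2t had 4 members higher than WT and 1 lower, the same 5 genes as *Mbd3* KO, where 33.4% of all genes were called (18.2% higher and 15.1% lower). The libraries did not overlap WT for these 5, against 69.2% of all genes. *Irf1* was at 106, 107 and 105 CPM and *Irf7* at 11.5, 12.6 and 11.5 CPM. Against *Mbd3* KO, 0 members were called in MBD2t, where 0.0241% of all genes were (0.00603% higher and 0.0181% lower), with 0 at an unadjusted p under 0.05 and 0 called by DESeq2, and the libraries did not overlap for 3, against 19% of all genes. *Irf8* reached 15.5, 18.8 and 26.4 CPM in MBD2t, and its log2 fold change against WT of 0.88 (adjusted p = 0.011, edgeR) did not pass the fold threshold but did without WT library 3 (1.31) or MBD2t library 1 (1.03). 

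MBD2a had 5 members called higher than WT and 2 lower, where 30.6% of all genes were called (16.9% higher and 13.7% lower), but the libraries did not overlap for 4 of them, against 56.0% of all genes. *Irf1* (85.1, 96.7 and 104 CPM), *Irf2* (16.3, 15.0 and 17.2 CPM) and *Irf9* (28.6, 28.8 and 40.4 CPM) were each apart from WT, and the log2 fold changes were 2.58 for *Irf1* (adjusted p = 0.000208, edgeR), -1.40 for *Irf2* (1.75e-05) and 1.20 for *Irf9* (2.72e-06). *Irf5* was at 2.48, 1.89 and 3.44 CPM, with a log2 fold change of 1.49 (adjusted p = 0.000354).

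*Irf7* and *Irf4* depended on MBD2a library 3. *Irf7* gave 15, 43 and 345 reads, or 0.432, 1.27 and 8.79 CPM, so that library 1 lay within the WT range while library 3 lay towards *Mbd3* KO. The log2 fold change against WT was 3.28 (adjusted p = 0.00123, edgeR), and 1.22 without library 3 (adjusted p = 0.0833), when the call was lost. *Irf4* gave 39, 10 and 155 reads, and its log2 fold change of 2.62 (adjusted p = 0.0385) fell to 1.27 without library 3. *Irf4* was not called either when any 1 of the WT libraries was left out (2.10, 2.84 and 3.15). The summed trophoblast markers were 563, 527 and 2115 CPM in MBD2a libraries 1, 2 and 3, and the summed primitive endoderm markers 2388, 418 and 2914 CPM, in the order of the *Irf4* reads. The part of these markers in the *Irf4* and *Irf7* values was not tested.

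*Irf8* in MBD2a lay apart from *Mbd3* KO. It measured 3.37, 6.04 and 5.68 CPM in MBD2a, below all *Mbd3* KO libraries (14.8 to 18.3 CPM) and overlapping WT only at the lowest WT library (5.88 CPM). Against *Mbd3* KO, the log2 fold change was -1.75 (standard error 0.30, 95% confidence interval -2.37 to -1.12, adjusted p = 0.00088, edgeR). *Irf8* and *Irf7* were the 2 members called in that comparison, both lower, where 5.25% of all genes were called (0.856% higher and 4.40% lower), and 3 members did not overlap, against 27.1%. *Irf7* there had a log2 fold change of -2.05 (adjusted p = 0.0155) and was not called without MBD2a library 1 (-1.55) or library 2 (-1.66). Against WT, the fall of *Irf8* was -1.13 (adjusted p = 0.0036, edgeR), and it was not called without WT library 3 (-0.70) or MBD2a library 1 (-0.90).

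Set against its own variants, MBD2a had 4 members called against MBD2aΔGR, 3 higher (*Irf1*, *Irf5* and *Irf7*) and 1 lower (*Irf2*), where 18.6% of all genes were called (10.6% higher and 8.02% lower). Against MBD2a R181C it had 5 called, 4 higher (those 3 and *Irf4*) and 1 lower (*Irf2*), where 27.3% were (15.1% higher and 12.2% lower). The libraries did not overlap for 7 members against MBD2aΔGR, where 40.6% of all genes did not, and for 5 against MBD2a R181C, where 56.7% did not. The log2 difference of *Irf1* was 1.55 from MBD2aΔGR (adjusted p = 0.0137, edgeR) and 1.87 from MBD2a R181C (adjusted p = 0.00269). That of *Irf2* was -1.03 (adjusted p = 0.000761) and -1.26 (adjusted p = 5.87e-05). Against MBD2aΔGR, *Irf1* was not called without MBD2aΔGR library 1 (1.31), nor *Irf2* without that library (-0.68) or MBD2a library 2 (-0.95). The *Irf2* call there was also lost with RLE scaling (-0.99), with library size only (-0.90) and with DESeq2 (-0.99). With only these lines in the fit, neither *Irf2* (adjusted p = 0.0664, edgeR) nor *Irf7* (adjusted p = 0.0663, edgeR) was called. *Irf7* differed by 4.68 and 3.02, and without MBD2a library 3 the difference from MBD2a R181C was 0.95 and was not called. *Irf4* against MBD2a R181C (2.93) was likewise not called without that library (1.57) or without MBD2a R181C library 1 (2.67) or 3 (2.93). *Irf9* did not overlap in either comparison, but its log2 differences of 0.62 and 0.86 stayed under the threshold, the second reaching 1.00 and a call without MBD2a R181C library 2. *Irf8* was lower than in MBD2aΔGR by a log2 difference of -0.99 (adjusted p = 0.0152, edgeR), and was called without MBD2a library 2 (-1.11), MBD2a library 3 (-1.09) or MBD2aΔGR library 1 (-1.06). From MBD2a R181C its log2 difference was -0.34 (95% confidence interval -0.97 to 0.30, adjusted p = 0.368, edgeR), and the libraries overlapped. Reads on *Mbd2* were also called lower in MBD2a. Their log2 difference was -2.57 from MBD2aΔGR (adjusted p = 1.66e-06, edgeR) and -1.79 from MBD2a R181C (adjusted p = 5.01e-06, edgeR). The part of the construct level in the IRF differences between these lines was not tested.

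Of the genes around the IRFs in the pathway, most interferon targets were called higher in *Mbd3* KO, while most of the listed sensors, receptor, NF-kB and partner genes were not called. Over all genes, 19.6% were called higher and 14.2% lower in this comparison. Of 19 interferon ligand genes listed, only 10 were in the table (*Ifnb1*, some alpha interferons, *Ifng* and others), and the rest were not measured. Of these 10, 0 passed the filter on low counts, and the most reads any of them had in a library was 3. *Ifnb1*, a main target of IRF3 and IRF7, had 1 read in all 24 libraries together. Among 35 interferon targets tested, 32 were called higher in *Mbd3* KO than in WT and 0 lower, against 19.6% and 14.2% of all genes, with a median log2 fold change of 3.66 where that of all genes was -0.03. The 4 largest changes were those of *Ciita* (6.62; the class II transactivator), *Oas2* (5.87; a sensor of double-stranded RNA that makes oligoadenylates), *Rsad2* (5.45; viperin) and *Mx1* (5.33; an antiviral GTPase). Their mean WT levels were 0.026, 0.12, 0.721 and 0.0435 CPM in that order. The size of these folds, above all for *Ciita*, *Mx1* and *Oas2*, thus rests on very few WT reads. Targets with so few WT reads passed the filter on low counts through lines where they are high. The numbers of targets called higher, here and in MBD2t and MBD2a, are therefore partly set by the filter. In MBD2t 33 of the 35 were higher than in WT, against 18.2% of all genes. In MBD2a it was 31, against 16.9% of all genes, and 19 without MBD2a library 3, the library with high *Irf7*. In MBD3a, MBD3ΔMBD, MBD2aΔGR and MBD2a R181C, 0 of the 35 were called against WT. Of all genes, 0%, 0.0181%, 5.16% and 0.0181% were called in these comparisons, so the target counts lie near those shares.

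Of 18 sensors, adaptors and kinases tested, 8 were called higher in *Mbd3* KO and 0 lower, against 19.6% and 14.2% of all genes. *Ikbke*, which encodes the IRF3 and IRF7 kinase IKKε, had the largest change (log2 fold change 4.01, standard error 0.51, adjusted p = 3.22e-06, edgeR), followed by *Sting1* (3.16; the adaptor below the DNA sensor cGAS), *Ifih1* (2.85; MDA5) and *Ddx58* (2.51; RIG-I, like MDA5 a sensor of viral RNA). *Tbk1*, the other kinase, was at 37.0 CPM in *Mbd3* KO and 31.6 CPM in WT (log2 fold change 0.23, adjusted p = 0.0823). Of 15 genes of receptor signalling, 6 were higher and 0 lower, against the same shares of all genes, among them *Usp18* (3.96; a brake on receptor signalling), *Il10rb* (2.40; a subunit of the lambda interferon receptor) and *Socs1* (1.63; an inhibitor of JAK kinases). Of 11 genes of NF-kB signalling, 3 were higher (*Nfkb2*, *Relb* and *Nfkbia*, by 1.17, 1.14 and 1.07) and 0 lower, which is near the 19.6% of all genes called higher, and without *Mbd3* KO library 1 this number was 1.

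Of 12 partners of IRF4 and IRF8 and cofactors tested, 3 were higher in *Mbd3* KO and 0 lower, near the 19.6% of all genes called higher. *Spib* rose most, from 0.334 to 26.01 CPM (log2 fold change 6.25, adjusted p = 1.21e-10, edgeR). *Batf3*, an AP-1 factor that works with IRF8 in dendritic cells, had 2.85, and *Spi1* 1.82 at 0.340 CPM (adjusted p = 0.0103), a call lost without WT library 1 or *Mbd3* KO library 2. Since these partners are known from blood cells, 15 blood and microglia markers were read beside them. The 7 that passed the filter, *Spi1* included, were all called higher in *Mbd3* KO, among them *Csf1r* (6.05), *Cd79b* (4.34), *Itgam* (2.68) and *Cd68* (2.67). Markers with few WT reads, such as *Spi1* (2, 3 and 6), passed the filter through lines where they are high. The 7 of 7 is therefore partly set by the filter. The summed level of the 15 was 62.8 to 84.4 CPM in *Mbd3* KO and 8.48 to 12.5 CPM in WT. A few genes dominate it, with *Csf1r* at 17.1 to 26.2 CPM and *Cd68* at 15.9 to 21.6 CPM in *Mbd3* KO. The defining markers *Ptprc*, *Ms4a1*, *Adgre1* and *Cx3cr1* were each at 0 to 3 reads in every library.

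**Figure D4:**
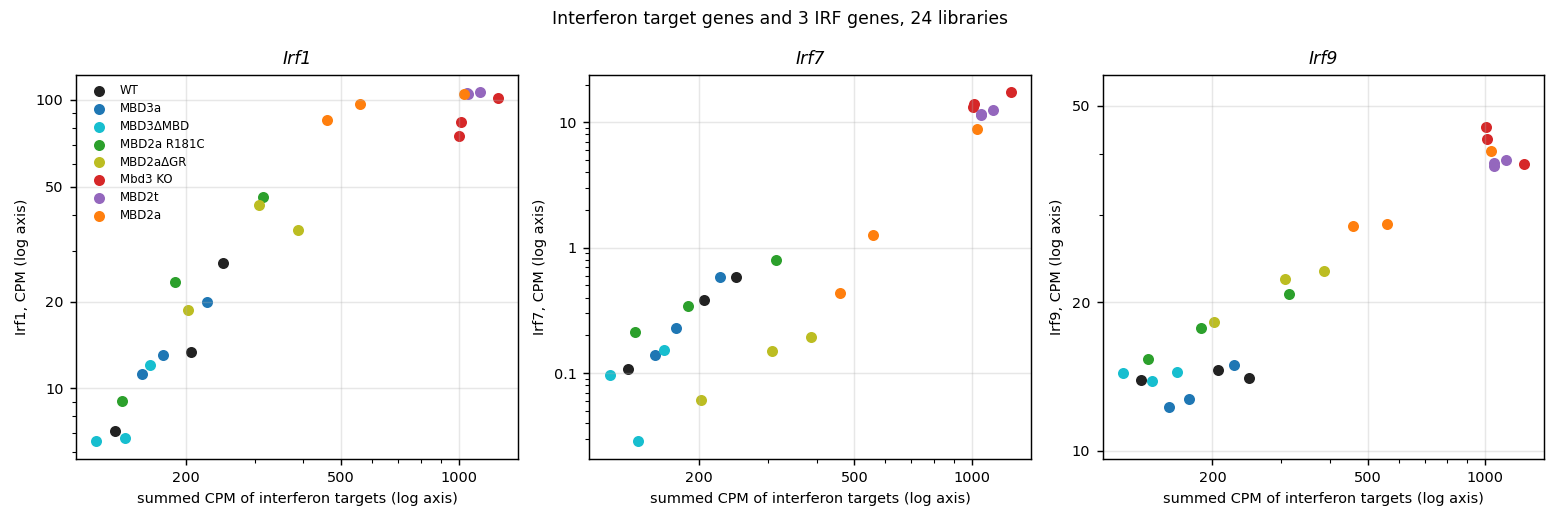
*Irf1*, *Irf7* and *Irf9* in CPM (vertical log axes) against the summed CPM of the interferon targets in the table (horizontal log axes), 1 point per library, coloured by line. The sums are 118 to 387 CPM in the 15 libraries of WT, MBD3a, MBD3ΔMBD, MBD2a R181C and MBD2aΔGR, and 459 to 1260 CPM in the other 9, with MBD2a library 3 beside *Mbd3* KO at 1033 CPM.

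The summed level of the interferon targets was 131 to 249 CPM in WT and 1004 to 1260 CPM in *Mbd3* KO. In MBD2a the sums were 459, 559 and 1033 CPM, in the same order as *Irf7* (0.432, 1.27 and 8.79 CPM), *Irf1* (85.1, 96.7 and 104 CPM) and *Irf9* (28.6, 28.8 and 40.4 CPM). Within lines, the library with the most *Irf7* had the highest sum of targets in 8 of 8 lines, that with the most *Irf1* in 7 and that with the most *Irf9* in 6. With 3 libraries a line, some such matches are met without any link. Several *Irf7* orders also rest on few reads. They were 4, 1 and 4 in MBD3ΔMBD, where the highest count was shared and depth set the order, and 2, 5 and 7 in MBD2aΔGR. In MBD2aΔGR the sums were 202 to 387 CPM, at *Irf7* levels of 0.0614 to 0.194 CPM.

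Within most lines, *Irf1* was highest where markers of pluripotent cells were highest. In WT the summed level of 7 such markers (*Nanog*, *Pou5f1*, *Esrrb* and others) was 22.6, 37.2 and 168 CPM in the libraries with 7.14, 13.4 and 27.3 CPM of *Irf1*. In MBD2a R181C it was 26.04, 308 and 124 CPM beside 9.07, 46.0 and 23.3 CPM of *Irf1*. The library with the most *Irf1* was the one with the most of these markers in 6 of 8 lines, and for *Irf7* this held in 7 of 8. The library with the least *Irf2* was the one with the most of these markers in 5 of 8 lines, and that with the most *Irf2* in 2 (*Mbd3* KO and MBD2a). Highest levels also met in 5 lines for *Irf9*, 4 each for *Irf4* and *Irf5*, 3 for *Irf8* and 2 for *Irf3*. Lines of 3 libraries give some such matches without any link. In *Mbd3* KO the marker sum was 312 to 992 CPM, and 7 of 7 markers were called higher than in WT. Of 9 trophoblast markers, 9 were also higher (summed level 1692 to 2253 CPM against 147 to 305 CPM in WT), as was 1 of 9 primitive endoderm markers, while 8 of 8 NPC markers and 3 of 6 mesenchyme markers were lower. Among all genes, 19.6% were called higher and 14.2% lower, so the endoderm count is below the background. The part of all these markers in the IRF differences was not tested.

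**Figure D5:**
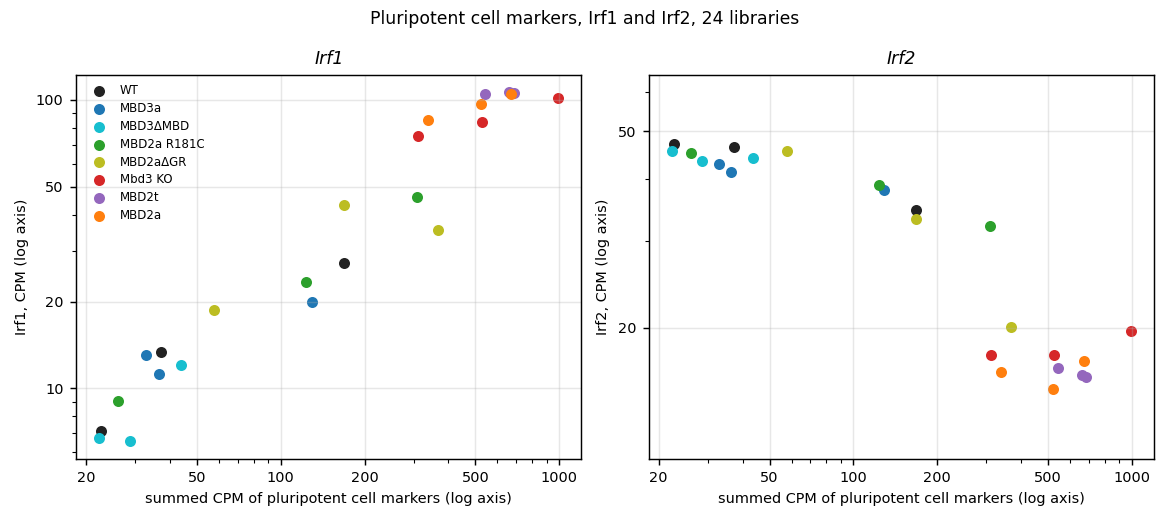
*Irf1* (left) and *Irf2* (right) in CPM (vertical log axes) against the summed CPM of 7 pluripotent cell markers (horizontal log axes), 1 point per library, coloured by line. WT library 3, at 168 CPM of the markers, has the most *Irf1* and the least *Irf2* of its line.

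The genes whose log2 CPM followed each member most closely over the 24 libraries differ between members. The likeness is Pearson's r, taken over tested genes whose mean log2 CPM was 1 or more, and the 24 points share lines and differ mainly between *Mbd3* KO-like and WT-like libraries, so it is a description. For *Irf1* these genes were *Trim6*, *Tfcp2l1* and *B3gnt7* (r of 0.990 to 0.991), for *Irf2* *Adgrb1*, *Spag9* and *Scd2* (0.986 to 0.990), for *Irf7* *Isg15*, *Chil1* and *Cd74* (0.979 to 0.981) and for *Irf9* *Cdkl2*, *Ubxn8* and *Plekhh1* (0.973 to 0.979). *Irf5* was followed by *Serpinf1*, *Batf3* and *Dio3* (0.943 to 0.949), and *Irf4* by *Ctsh*, *Srgn* and *Apoa1* (0.917 to 0.933). The values were lowest for *Irf3* (*Tmco1*, *Serf2* and *Tmem251*, 0.868 to 0.872) and *Irf8* (*Btg3*, *Tmed5* and *Alad*, 0.778 to 0.797). Among the members themselves, *Irf1* and *Irf9* had the highest r (0.921) and *Irf1* and *Irf2* the lowest (-0.935).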

How the data were processed

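RNA-seq of 24 NPC-stage libraries was analysed; 6 ChIP samples in the labels were not analysed here. Per the labels and the study's methods, the authors used a directional poly(A) kit with single-end sequencing, trimmed reads with Trim Galore 0.6.6, aligned with STAR to mm9 and counted reads per GENCODE gene with QuasR. The strand setting of counting is not given in the sources used here. The deposited values are raw counts per gene. The column of the R181C line numbers the substituted residue differently and was matched as the only MBD2a point mutant.

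Counts were tested with edgeR 4.0.16 (R 4.3.3; quasi-likelihood fit over all 24 libraries, filterByExpr by line, TMM scaling, 15 comparisons). Standard errors were derived from the log2 fold change and its F statistic. Folds are 2 to the power of the fitted log2 fold change; with 3 libraries a group, low counts carry wide intervals. Exon lengths come from the mm9 GENCODE annotation, promoters from RefSeq. On simulated counts for *Mbd3* KO against WT (15771 genes), 33 of 82 genes changed 2-fold, 51 of 59 changed 4-fold and 56 of 59 changed 8-fold were recovered. A 2-fold change lies on the fold threshold itself, which limits its recovery whatever the spread. In the same run 5 unchanged genes were called.

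The members and lists were chosen with earlier results of these data known. Genes of the pathway lists and blood markers were named from the 4 called genes with the largest change in *Mbd3* KO against WT whose libraries did not overlap, with the blood markers near 0 reads and the NPC and pluripotent markers named only as examples of their lists, plus *Stat2*, *Tbk1*, *Ikbke* and *Spi1*; some genes of the lists are not reported here. Alternatives were the fit of the 2 lines alone, RLE scaling, library size only, DESeq2 1.42.0, no filter, no fold threshold, each library left out, MBD2t left out and, added after seeing the data, the legacy quasi-likelihood test. Per-library counting error for a count of 0 has a floor of 3 reads.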

Additional observations from a re-analysis of the deposited data

How the results depend on the processing

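No paired analysis was possible because the columns of the count table carry no replicate number. The number of IRF genes called kept within 1.5 times of the reported one in *Mbd3* KO, MBD2t, MBD3a, MBD3ΔMBD and MBD2a R181C against WT, and in MBD3a, MBD3ΔMBD, MBD2a R181C and MBD2t against *Mbd3* KO, under all alternatives run. With only the 2 lines compared in the fit, MBD2a had 4 members called against WT, 1 against *Mbd3* KO, 2 against MBD2aΔGR and 3 against MBD2a R181C. MBD2a against *Mbd3* KO also had 1 with DESeq2 and 1 with the legacy test, *Irf7* being lost (adjusted p = 0.0526 and 0.0958). MBD2aΔGR against WT had 1 without the fold threshold and 1 with DESeq2, and against *Mbd3* KO 6 without the fold threshold. Leaving out 1 library at a time gave 0 to 1 for MBD2aΔGR against WT, 3 to 5 for it against *Mbd3* KO, 1 to 2 for MBD2a against *Mbd3* KO, 3 to 5 for MBD2a against MBD2aΔGR, 3 to 6 for MBD2a against MBD2a R181C and 5 to 7 for MBD2a against WT. Of the single-gene values of the members under the alternatives, 851 stayed on the same side of the thresholds, 34 lost a call, 32 gained one and 0 called values changed sign. The cause of these shifts was not tested. Depth limits *Irf4* and *Irf7*, which had as few as 1 read in a library.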
